A study of Mus musculus with 48 samples.

Results

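The genes described here encode receptors to which antihistamines, antipsychotics and tricyclic drugs bind. They are the histamine H1 receptor (Hrh1), the serotonin receptors Htr2a, Htr2b and Htr2c, the dopamine receptors Drd1 and Drd2, the alpha-1B adrenergic receptor (Adra1b), the muscarinic M1 receptor (Chrm1) and the sigma-2 receptor (Tmem97). The 9 genes were chosen by name, and 7 of them have a row among the 18178 rows with a gene symbol in a table of 27281 rows. Htr2c and Drd2 were not analysed here. RNA-Seq values were deposited for 48 samples of murine striatal progenitor lines of C57BL/6 background, 3 in each of 16 conditions, all kept for 24 hours in serum-free medium. STHdhQ111 cells, a conditionally immortalized line with a homozygous knock-in of mutant huntingtin, received 1 of 14 compounds or the DMSO vehicle. STHdhQ7 cells, the wild-type line, received vehicle alone. Each genotype was 1 cell line, so differences between the lines cannot be told apart from differences between genotypes. The labels give the 3 samples of a condition different collection days, apart from cyproheptadine and DKI, whose replicates 1 and 3 share a day. They do not say whether the samples came from separate cultures, and p-values measure the spread between these samples alone.

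The dose was 10 µM for diacylglycerol kinase inhibitor II (DKI), cyproheptadine, meclizine, selisistat and loxapine, 5 µM for pizotifen and 250 µM for cysteamine. Sodium butyrate was given at 1 mM and 4-deoxypyridoxine (DOP) at 4 mM. Fingolimod phosphate was given at 250 nM, trichostatin A at 10 nM, nortriptyline at 1 nM, and nicotinamide and haloperidol at 0.5 nM. In the study, the RNA profiles set 5 compounds apart from the STHdhQ111 vehicle as a single cluster. Metabolite profiles of the same experiment then divided this cluster. Pizotifen, loxapine and cyproheptadine became Group A, whereas meclizine and DKI became Group B. The choice of these 5 compounds is thus not independent of the RNA values tested here.

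Histamine, serotonin, dopamine, noradrenaline and acetylcholine act on G protein-coupled receptors of the cell surface. The H1, 5-HT2, alpha-1 and M1 receptors couple mainly to Gq, which activates phospholipase C and releases calcium, whereas the D1 receptor couples to Gs and the D2 receptor to Gi. Cyproheptadine and pizotifen are antagonists of H1 and 5-HT2 receptors, meclizine is an H1 antagonist, loxapine and haloperidol are antipsychotics that block D2 receptors, and nortriptyline is a tricyclic antidepressant. TMEM97 is of another kind: it is a small membrane protein of the endoplasmic reticulum and lysosome that binds sterols and NPC1 and that cationic amphiphilic drugs also bind. Its gene is known as a target of SREBP2, the transcription factor that raises sterol synthesis when cell sterol is low. D1 and D2 receptors mark the mature projection neurons of the striatum.

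Of the 7 genes, Tmem97 and Adra1b lay above the background of the table, and the sequences upstream of their start sites are shown because their levels are the ones that moved. They are given 5′ to 3′ on the strand of the gene, from RefSeq on build GRCm38.p6, and capitals mark the GC box GGGCGG or its reverse complement. The first is 208 bases upstream of the Tmem97 transcript start at chr11:78550778-78550985 on the minus strand, the second lies upstream of the outer Adra1b start at chr11:43901238-43901487 on the minus strand, and the third upstream of the inner Adra1b start at chr11:43836490-43836739 on the minus strand.
Tmem97: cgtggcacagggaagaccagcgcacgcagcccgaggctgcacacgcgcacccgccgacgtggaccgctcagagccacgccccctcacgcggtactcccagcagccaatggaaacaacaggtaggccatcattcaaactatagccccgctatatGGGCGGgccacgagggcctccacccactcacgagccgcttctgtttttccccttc
Adra1b outer: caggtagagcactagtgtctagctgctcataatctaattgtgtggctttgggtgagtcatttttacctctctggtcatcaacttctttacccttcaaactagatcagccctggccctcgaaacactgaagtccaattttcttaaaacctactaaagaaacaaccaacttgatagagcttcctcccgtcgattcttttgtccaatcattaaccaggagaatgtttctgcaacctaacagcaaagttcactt
Adra1b inner: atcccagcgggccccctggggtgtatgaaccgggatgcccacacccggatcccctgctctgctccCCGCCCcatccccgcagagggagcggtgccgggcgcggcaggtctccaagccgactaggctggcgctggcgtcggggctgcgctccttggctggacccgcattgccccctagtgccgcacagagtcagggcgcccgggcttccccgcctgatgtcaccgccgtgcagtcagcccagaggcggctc
Windows of 250 bases upstream of 32851 RefSeq start sites were searched on both strands for 4 motifs. The sterol element TCACNCCAC occurred in 1.05% of them, the E-box CACGTG in 6.02%, GGGCGG in 32.7% and the TATA box TATAAA in 12.4%. The Tmem97 window held GGGCGG in 2 places, one of them in the last 42 bases, which GENCODE places in the first exon and which are not printed, and it held none of the other 3 motifs as written. The inner Adra1b window held 1 GC box and the outer one none of the 4 motifs. The GC content was 65.2% for Tmem97, 41.6% for the outer and 72.8% for the inner Adra1b window, beside a median of 52.4% over all windows. Entries were found for 8 of the 9 genes, all but Chrm1. Windows of the other genes spanned a wider range of composition, from 37.6% for Htr2b to 78.4% for one of the Hrh1 starts.

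The question first asked of each gene was whether its RNA could be told from background. Values are the authors' normalized abundances on a log2 scale, in which genes with few reads hardly vary. The background was taken from 453 olfactory and vomeronasal receptor genes, whose RNA is known mainly from the nose. Their means over the 48 samples had a median of -1.30 and a 95th percentile of 4.09, which was used as the floor, and 60.9% of all genes with a symbol lay above it in every sample. The floor holds for values not divided by gene length.

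Tmem97 (ENSMUSG00000037278; GRCm38, chromosome 11, 78541817 to 78550777, minus strand) ranged from 8.80 to 10.07 over the 48 samples with a median of 9.29. Its lowest sample lay 4.72 above the floor, and 1 of the 453 sensory receptor genes had a higher mean. Adra1b (ENSMUSG00000050541; chromosome 11, 43774606 to 43901210, minus strand) ranged from 4.89 to 5.68 with a median of 5.36. Its lowest sample lay 0.81 above the floor, and 12 sensory receptor genes had a higher mean, so its margin was far narrower than that of Tmem97. With the floor set at the highest sensory receptor gene, which stood apart at 11.42, neither gene would lie above it.

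Chrm1 (ENSMUSG00000032773; chromosome 19, 8663789 to 8683587, plus strand) ranged from 2.02 to 2.36, and 62 sensory receptor genes had a higher mean. Hrh1 (ENSMUSG00000053004; chromosome 6, 114397936 to 114483296, plus strand) ranged from 1.04 to 1.27, and 93 had a higher mean. Every sample of both genes was under the floor. The receptor of the antihistamines among these drugs was thus not told apart from sensory receptor genes in any of the 16 conditions.

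Drd1 (ENSMUSG00000021478; chromosome 13, 54051183 to 54055705, minus strand), Htr2a (ENSMUSG00000034997; chromosome 14, 74640840 to 74709494, plus strand) and Htr2b (ENSMUSG00000026228; chromosome 1, 86099026 to 86111970, minus strand) lay at the bottom of the table, whose lowest value was -2.34. Drd1 ranged from -2.18 to -2.17, Htr2a from -2.24 to -2.22 and Htr2b from -2.13 to -2.12. Most samples shared almost 1 value for each of these genes, and few stood over 0.004 above the median: 4 of 48 for Drd1, 3 for Htr2a and 5 for Htr2b. For Htr2b these included all 3 STHdhQ7 samples, for Drd1 they were 1 sample each of the STHdhQ111 vehicle, selisistat, pizotifen and trichostatin A, and for Htr2a 1 each of the STHdhQ7 vehicle, cyproheptadine and nortriptyline. The largest steps above the median were 0.0113 for Drd1, 0.0148 for Htr2a and 0.0115 for Htr2b on the log2 scale, and the means of these genes were under the minimum of 1 set for testing.

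**Figure D1:**
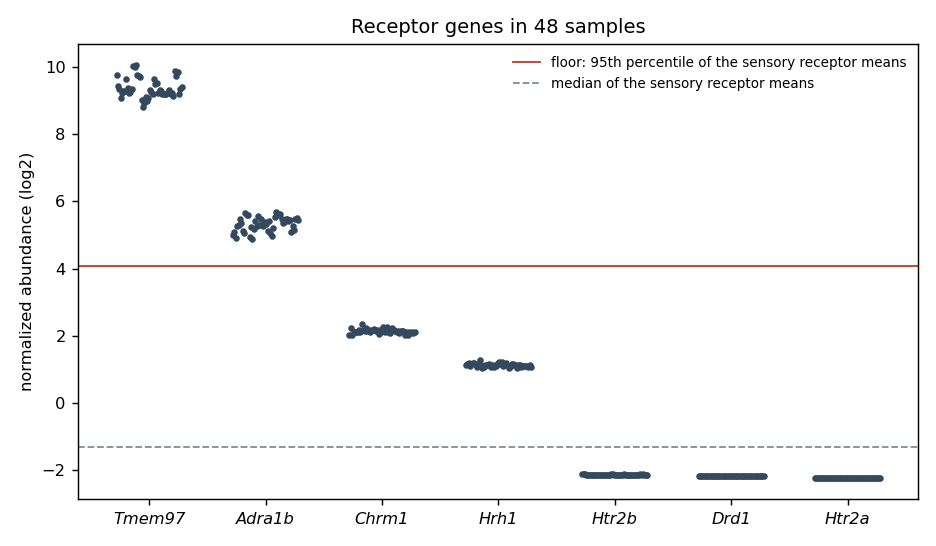
Normalized abundance (log2, vertical axis) of the 7 receptor genes in each of the 48 samples (points, horizontal axis by gene), with the floor (4.09, solid line) and the median of the sensory receptor means (-1.30, dashed line). All samples of Tmem97 and Adra1b lie above the floor, and all samples of the other 5 genes lie under it.

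Per kilobase of exon the order of mean levels was the same for the leading genes, with 8.92 on the log2 scale for Tmem97, 3.57 for Adra1b, -0.56 for Chrm1 and -1.02 for Hrh1. The values of Htr2b, Drd1 and Htr2a were -3.22, -4.04 and -4.72. Htr2b shares its locus with Psmd1 and Chrm1 with Gm22820, both on the other strand.

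Of 37 genes for amine receptors that were listed, 29 had a row and 27 of these lay under the floor in every sample, among them the closest relatives of the genes above: Adra1a, Adra1d, Hrh2, Hrh3, Chrm2, Chrm3 and Chrm4. All of the dopamine and serotonin receptor genes with a row were in this set. Of the 6 genes of this family tested besides those described here, 3 were higher in STHdhQ7 than in STHdhQ111 vehicle and 0 lower, where 55.8% of all genes were called. All 3 lay under the floor. Adra1d, the alpha-1D adrenergic receptor, was higher in STHdhQ7 cells by 1.09 ± 0.05 (SE, n = 3 a group; limma, adjusted p = 8.99e-22), at 3.00 against 1.91. Htr1b, the 5-HT1B receptor, was higher by 0.63 (1.78e-17) and Adra2a, the alpha-2A adrenergic receptor, by 0.09 (0.0489). Adra1d and Htr1b share their loci with genes on the other strand.

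The other markers of the cells were read against the same floor. Of 8 neuron markers, 2 lay above it in every sample (Map2 and Tubb3) and 4 under it, including Rbfox3, Snap25 and Dcx. Of 4 neuron markers tested, 3 were higher and 0 lower in STHdhQ7 than in STHdhQ111 vehicle. The median difference of the 4 was 0.87 (55.8% of all genes called). Of 11 markers of striatal projection neurons with a row, 3 lay above the floor in every sample and 8 under it. The 8 include Penk, Tac1 and Adora2a, which mature D1 and D2 neurons use. Of 5 striatal markers tested, 2 were higher and 2 lower in STHdhQ7 cells (55.8% of all genes called). Of 11 neural progenitor markers with a row, 7 lay above the floor, 2 on both sides of it and 2 under it, and of 9 tested 7 were higher and 0 lower in STHdhQ7 cells, with a median difference of 1.36 (55.8% of all genes called). Among them Vim was at 15.4 in STHdhQ111 vehicle and 15.6 in STHdhQ7 vehicle, whereas Nes was at 4.96 and 10.95. Of 7 microglia markers, 5 were under the floor, but Ptprc was at 10.6 in STHdhQ111 and 7.86 in STHdhQ7 cells. In bulk RNA, fewer cells that express a gene and less RNA per cell cannot be told apart.

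Tests used limma on 13409 genes, which included Tmem97, Adra1b, Chrm1 and Hrh1, with the collection day as a covariate, and a difference was called at an adjusted p under 0.05. Of the 56 differences of these 4 genes over the 14 compounds, 10 were called. Tmem97 had 6 of them and Adra1b 4. In every comparison 4 of the genes were tested, and the share of all genes called is given beside their count. Here and for the gene lists, that share counts genes called in either direction. Both cyproheptadine (35.6% of all genes called) and DKI (42.3%) had 2 of the 4 called. Sodium butyrate (37.5%), meclizine (26.8%), loxapine (21.9%), DOP (20.1%), pizotifen (17.9%) and nicotinamide (10.4%) each had 1. Trichostatin A (13.1%), cysteamine (7.83%), nortriptyline (3.83%), selisistat (0.515%), fingolimod phosphate (0.0597%) and haloperidol (0%) had 0. At an unadjusted p under 0.05, 1 of the 4 genes passed with nortriptyline, where 18.5% of all genes did, and 0 with the other 5. Of all genes, 26.8% passed that threshold with trichostatin A, 23.0% with cysteamine, 17.2% with selisistat, 10.5% with fingolimod phosphate and 2.96% with haloperidol. STHdhQ7 against STHdhQ111 (55.8%), Group A (32.8%) and Group B (41.0%) had 2 of the 4 called. With so many genes called in most comparisons, nothing is read from the counts alone.

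Tmem97 rose with all 5 compounds of Groups A and B. In the 3 STHdhQ111 vehicle samples it was at 9.07, 9.23 and 9.28. With cyproheptadine it was at 10.02, 10.01 and 10.07, with pizotifen at 9.89, 9.74 and 9.85, and with loxapine at 9.75, 9.73 and 9.71. All samples of these 3 compounds lay above all vehicle samples. The differences were 0.84 ± 0.08 (SE, n = 3; adjusted p = 2.64e-10) for cyproheptadine, 0.63 ± 0.08 (5.33e-07) for pizotifen and 0.54 ± 0.08 (5.57e-06) for loxapine. In linear terms these were 1.79-fold, 1.55-fold and 1.45-fold. The 9 Group A samples ranged from 9.71 to 10.07 with a median of 9.85, and their mean differed from vehicle by 0.67 ± 0.06 (adjusted p = 5.62e-10).

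The Group B compounds gave smaller values. DKI samples were at 9.64, 9.51 and 9.54, and meclizine samples at 9.28, 9.66 and 9.37. The lowest meclizine sample lay just above the highest vehicle sample. The difference from vehicle was 0.36 ± 0.08 (adjusted p = 2.48e-04) for DKI, 0.24 ± 0.08 (0.0172) for meclizine and 0.30 ± 0.07 (3.75e-04) for Group B. The meclizine call was lost without vehicle replicate 1 (0.18, adjusted p = 0.15) or meclizine replicate 2 (0.12, adjusted p = 0.271).

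Of the 14 compounds, DOP alone passed the test with lower Tmem97, with samples at 9.03, 8.80 and 8.93, all below vehicle. Its difference was -0.27 ± 0.08 (adjusted p = 0.0114). This call was lost without vehicle replicate 2 (adjusted p = 0.0571), vehicle replicate 3 (0.058) or DOP replicate 2 (0.108). Selisistat, collected with the vehicle, differed by -0.14 (95% interval -0.29 to 0.02, adjusted p = 0.371). The other 7 compounds lay between -0.0038 for haloperidol and 0.13 for cysteamine, and none was called.

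The wild-type STHdhQ7 cells also had more Tmem97 RNA, with samples at 9.77, 9.44 and 9.35, all above the STHdhQ111 vehicle. The difference was 0.33 ± 0.08 (adjusted p = 4.82e-04), and with only the 6 vehicle samples in the fit it was 0.33 with an adjusted p of 0.0532. Without STHdhQ7 replicate 1, the highest of its samples, it was 0.19 (adjusted p = 0.0296). Meclizine and DKI, its neighbours in the order of means, were at 9.44 ± 0.20 and 9.56 ± 0.07 (SD, n = 3) beside 9.52 ± 0.22 in STHdhQ7 cells. With 3 samples against 3, the exact two-sided permutation test of a single gene cannot give a p below 0.1, and it gave that value for each of the 7 conditions with a called difference.

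Across the 16 conditions the mean level of Tmem97 fell in the order cyproheptadine, pizotifen, loxapine, DKI, STHdhQ7 vehicle, meclizine, cysteamine, sodium butyrate, nicotinamide, trichostatin A, fingolimod phosphate, nortriptyline, STHdhQ111 vehicle, haloperidol, selisistat and DOP. The means spanned 1.11 on the log2 scale, and the median SD within a condition was 0.06. Of the 15 neighbouring pairs in this order, 3 had samples that did not overlap: cyproheptadine and pizotifen, loxapine and DKI, and haloperidol and selisistat. All other neighbours overlapped.

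**Figure D2:**
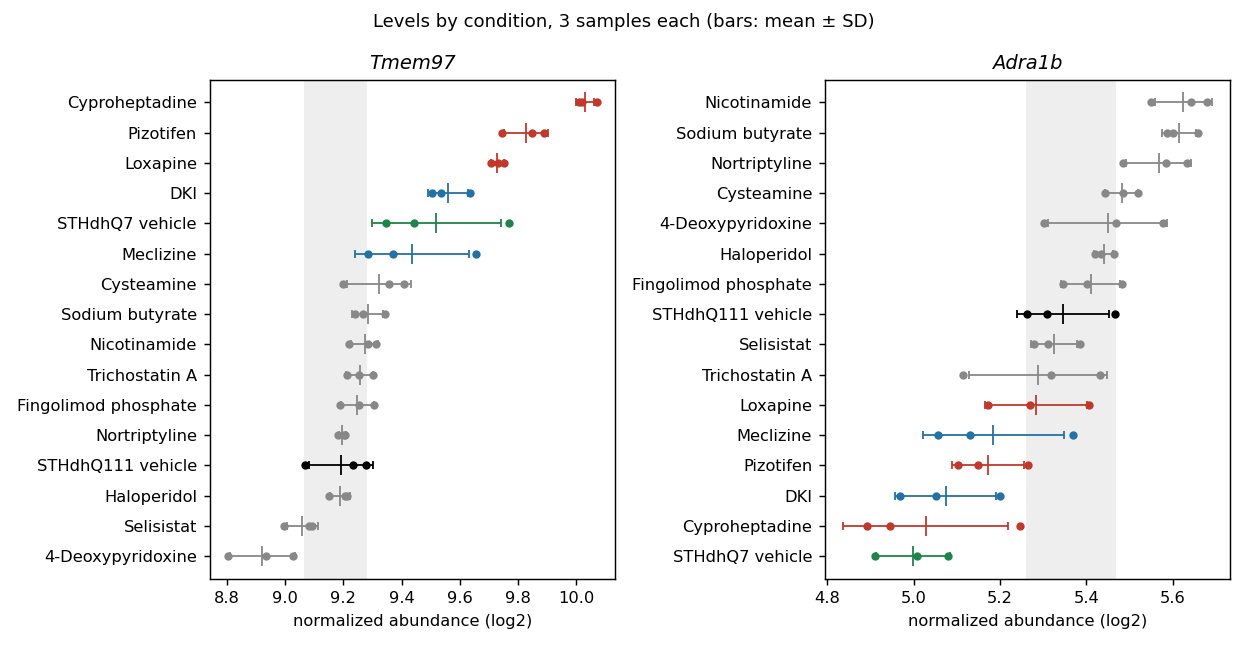
Normalized abundance (log2, horizontal axes) of Tmem97 (left) and Adra1b (right) in the 16 conditions (vertical axes), with 3 samples (points) and mean ± SD (bars) each, Group A in red, Group B in blue, STHdhQ111 vehicle in black, STHdhQ7 vehicle in green and the range of the STHdhQ111 vehicle shaded. The Group A samples of Tmem97 sit between 9.71 and 10.07, all above the shaded range, and the STHdhQ7 samples of Adra1b sit between 4.91 and 5.08, all below it.

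A schedule here is the set of collection days and times of the 3 samples of a condition. There were 4 schedules, and conditions were set beside those with the same one. Pizotifen (9.74 to 9.89) lay above all samples of the 4 other compounds of its schedule (9.15 to 9.66). Loxapine (9.71 to 9.75) lay above all samples of its 5 (8.80 to 9.41). DOP (8.80 to 9.03) lay below its 5 (9.18 to 9.75), and STHdhQ7 (9.35 to 9.77) above the STHdhQ111 vehicle and selisistat (8.997 to 9.28). Meclizine (9.28 to 9.66) overlapped its 4 (9.15 to 9.89), which include pizotifen. Cyproheptadine and DKI shared a schedule with each other alone, and replicate 1 of both is labelled with the third day. Replicates 2 and 3 of both share their day and time with those of the vehicle.

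Cyproheptadine, loxapine, meclizine and DKI share the dose of 10 µM, which gives 6 pairs. Selisistat, a SIRT1 inhibitor also given at 10 µM, was not paired with them. Tmem97 was called in 4 of them and no other of the 4 genes in any. Cyproheptadine exceeded meclizine by 0.59 ± 0.08 (adjusted p = 1.07e-06 over all genes and 3.03e-08 over the 6 pairs, with 18.8% of all genes called). It exceeded DKI by 0.47 ± 0.08 (9.90e-06 and 1.37e-06, with 28.6% called) and loxapine by 0.30 ± 0.08 (0.0102 and 8.57e-04, with 10.5% called). Loxapine exceeded meclizine by 0.29 ± 0.08 (0.00493 and 8.57e-04, with 23.6% called). Loxapine and DKI differed by 0.17 (95% interval 0.01 to 0.33), which missed the threshold over all genes (0.0817, with 37.0% called) and passed it over the 6 pairs (0.0406). Meclizine and DKI differed by -0.12 (-0.28 to 0.04; 0.402 and 0.137, with 8.11% called). The call between cyproheptadine and loxapine was lost without loxapine replicate 3 (adjusted p = 0.0515), and that between loxapine and meclizine without meclizine replicate 1 (0.21, adjusted p = 0.0812). At an unadjusted p under 0.05, 2 of the 4 genes passed between loxapine and DKI, where 44.6% of all genes did, and 0 between meclizine and DKI, where 21.6% did. Pizotifen was given at a lower dose and was compared with none of them.

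Tmem97 was set beside a list of 8 proteins that bind these drugs or sterols, which includes the synthesis enzyme Dhcr7. It was also set beside 21 genes of sterol synthesis and its control, called sterol synthesis genes here. Besides enzymes, these include the regulators Insig1 and Srebf2 and the sterol transport gene Stard4. All 8 of the first list lay above the floor. In Group A 7 of them rose and 0 fell (32.8% of all genes called), with a median difference of 0.43, and in STHdhQ7 cells 6 rose and 0 fell (55.8%), with a median of 0.34. In Group B 2 rose and 2 fell (41.0%), with a median of 0.0012. The median difference over all genes tested lay between -0.0041 and 0.0040 in these comparisons. Npc1, which exports cholesterol from lysosomes, rose with Group A by 0.32 (2.76e-05) and with Group B by 0.39 (1.29e-06). Dhcr7, the last enzyme of one route to cholesterol, rose by 0.50 in Group A and fell by 0.42 in Group B.

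Most of the 21 sterol synthesis genes moved in the other direction from Tmem97 with DKI, but not with meclizine. With Group A 20 of 21 rose (32.8% of all genes called), with a median of 0.57, and with STHdhQ7 vehicle 18 rose (55.8%), with a median of 0.46. With DKI 19 of 21 fell (42.3%), with a median of -0.63, while Tmem97 rose by 0.36. Hmgcs1, which makes the precursor of mevalonate, fell by 1.08 with DKI, and Mvk, mevalonate kinase, by 0.78. With meclizine 2 fell and 0 rose (26.8%), with a median of 0.01, and with DOP 19 fell (20.1%), with a median of -0.51, while Tmem97 fell by 0.27. No test was made of the difference between Tmem97 and these genes. The list medians share the vehicle samples with the Tmem97 differences.

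**Figure D3:**
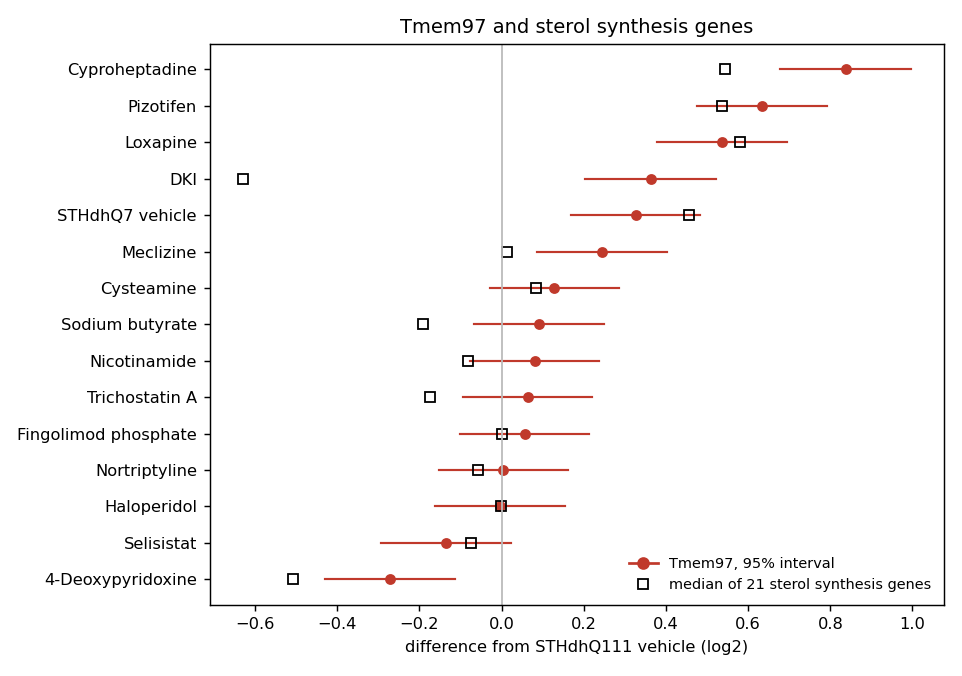
Difference from STHdhQ111 vehicle (log2, horizontal axis) of Tmem97 (red points, with 95% intervals) and the median of 21 sterol synthesis genes (squares) for the 14 compounds and STHdhQ7 vehicle (vertical axis). Both markers lie on the right for the Group A compounds, whereas with DKI Tmem97 is at 0.36 and the sterol median at -0.63.

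The genes whose condition means were most like those of Tmem97 were found by Pearson's r over the 15 conditions of STHdhQ111 cells, among the 10733 genes whose mean reached 5. They were Hsd17b12 (r = 0.99), Lrrc59 (0.98), Sec61a1 (0.98), Stt3a (0.95) and Slc15a4 (0.95). Their Spearman correlations ranged from 0.77 for Slc15a4 to 0.93 for Hsd17b12, and by that measure none was among the 5 most alike. Sec61a1 encodes the protein channel of the endoplasmic reticulum and Stt3a a catalytic subunit of its oligosaccharyltransferase. The 20 sterol synthesis genes with a mean of at least 5 had a median r of 0.68, and the median over all 10733 genes was -0.02. Many other genes were as alike: Acat2 of this list, with r = 0.68, ranked 1087 among the 10733. Sc5d, the highest of the list (0.89), ranked 128. The 15 means share 1 library preparation method and normalization, so these values describe likeness alone.

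Adra1b moved less than Tmem97 and in the other direction with Groups A and B. In STHdhQ111 vehicle it was at 5.26, 5.31 and 5.47. It was lowest in STHdhQ7 cells, at 5.01, 5.08 and 4.91, all below the STHdhQ111 samples, with a difference of -0.35 ± 0.09 (SE, n = 3; adjusted p = 0.00111). This call held in each fit with a sample left out. Adra1b thus fell in the wild-type line while Adra1d, under the floor, was higher there.

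With cyproheptadine Adra1b was at 4.95, 5.25 and 4.89, all below vehicle, and fell by 0.31 ± 0.09 on the log2 scale (adjusted p = 0.00579). With DKI it was at 5.05, 4.97 and 5.201, also all below vehicle, and fell by 0.27 ± 0.09 (0.0145). The cyproheptadine call was lost without vehicle replicate 3 (adjusted p = 0.0617) or cyproheptadine replicate 3 (0.0533), and with only those 6 samples in the fit (0.0863). The DKI call was lost without vehicle replicate 3 (0.123) or DKI replicate 2 (0.104). Meclizine (-0.16, 95% interval -0.34 to 0.02), pizotifen (-0.17, -0.35 to 0.01) and loxapine (-0.06, -0.24 to 0.12) did not pass, and their samples overlapped those of the vehicle. The 9 Group A samples ranged from 4.89 to 5.41 and the 6 Group B samples from 4.97 to 5.37.

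The mean of Group A differed by -0.18 ± 0.07, with an adjusted p that rounds to 0.05 from below, and that of Group B by -0.22 ± 0.08 (0.0242). The Group A call was lost with no minimum mean (0.0717) and with the collection time in the fit (0.0615), and the Group B call with only the compared samples in the fit (-0.21, adjusted p = 0.0851). Without vehicle replicate 3 the differences were -0.12 for Group A and -0.15 for Group B. Leaving out 1 sample ended the Group A call in 9 of 12 fits, those without any vehicle sample and those without replicate 1 or 3 of cyproheptadine, pizotifen or loxapine (adjusted p from 0.0517 to 0.336). It ended the Group B call in 3 of 9 fits, those without vehicle replicate 3 (0.214), DKI replicate 2 (0.0661) or meclizine replicate 3 (0.0633).

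Adra1b was highest with nicotinamide, at 5.55, 5.68 and 5.64, and with sodium butyrate, at 5.66, 5.60 and 5.59, all above the vehicle samples. The differences were 0.28 ± 0.09 (adjusted p = 0.0393) and 0.27 ± 0.09 (0.0161). The nicotinamide call was lost without vehicle replicate 1 (0.217) or 2 (0.14) and without nicotinamide replicate 2 (0.171) or 3 (0.10). The butyrate call was lost without vehicle replicate 1 (0.0951) or 2 (0.0623) and without butyrate replicate 1 (0.0619). Nortriptyline samples, at 5.59, 5.63 and 5.49, also lay above all vehicle samples, with a difference of 0.22 (95% interval 0.04 to 0.40) that did not pass over all genes (0.159). Nicotinamide, butyrate and nortriptyline were collected on the same schedule of days and times and overlapped one another. The 3 other compounds of that schedule ranged from 5.17 to 5.58.

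Over the 16 conditions the means of Adra1b spanned 0.63 on the log2 scale with a median SD of 0.08, and 0 of the 15 neighbouring pairs had samples that did not overlap. None of the 6 pairs of cyproheptadine, loxapine, meclizine and DKI was called. Cyproheptadine lay below loxapine by 0.25 (95% interval -0.44 to -0.07 for cyproheptadine minus loxapine; adjusted p = 0.0674 over all genes and 0.0492 over the 6 pairs). That pair was called without the collection day in the fit (0.0457) and without cyproheptadine replicate 2 (-0.37, adjusted p = 0.00988). Without the same sample, cyproheptadine was also called below meclizine (-0.27, adjusted p = 0.0434). Loxapine was called above DKI without loxapine replicate 1 (0.26, adjusted p = 0.0384) or DKI replicate 3 (0.27, adjusted p = 0.0311), beside 0.21 (0.0698) with all samples.

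The condition means most like those of Adra1b were those of Ptn (r = 0.96), Prrx2 (0.96), Ifitm2 (0.96), Mmp2 (0.96) and Hoxb8 (0.95). Adra1b and Tmem97 had r = -0.68. In a list of mesenchymal markers, the 7 genes with a mean of at least 5 had a median r of 0.84, beside -0.02 over all genes. High values were not particular to this list. Medians were 0.50 for neural progenitor markers (7 genes), 0.73 for astrocyte (2), 0.41 for microglia (2) and 0.25 for striatal projection neuron markers (3). The oligodendrocyte and neuron lists, with 1 gene each, had 0.90 and 0.71. Of 8 tested mesenchymal markers, 4 fell and 0 rose with Group A (32.8% of all genes called). With Group B 5 fell and 0 rose (41.0%). With butyrate, where 2632 of all 13409 genes rose and 2391 fell (37.5%), 3 of the markers rose and 0 fell. In STHdhQ7 cells 3 rose and 2 fell (55.8%). The sum of the mesenchymal list over its 9 genes, as a log2 level, ranged from 15.47 to 15.63 in STHdhQ111 vehicle. It ranged from 14.92 to 15.58 in Group A and from 14.58 to 15.06 in Group B. It ranged from 15.78 to 15.92 with butyrate and from 15.67 to 15.8 with nicotinamide. In STHdhQ7 vehicle, where Adra1b was lowest, it ranged from 15.26 to 15.61 and overlapped the STHdhQ111 vehicle. Thy1 alone of the 9 lay under the floor in every sample. The part of these genes in the Adra1b values was not tested.

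With all samples in the fit, neither receptor under the floor that could be tested was called. Over the 23 comparisons Chrm1 differed by -0.03 to 0.12 with a lowest adjusted p of 0.0634, for sodium butyrate, where its samples were at 2.36, 2.18 and 2.14 beside 2.10, 2.10 and 2.12 in vehicle. It passed an unadjusted p under 0.05 in that comparison alone, and was called there without butyrate replicate 3 (0.17, adjusted p = 0.0221). Hrh1 differed by -0.07 to 0.05 with a lowest adjusted p of 0.134 and passed an unadjusted p under 0.05 in 0 comparisons. Across all comparisons the 95% intervals reached from -0.14 to 0.23 for Chrm1 and from -0.14 to 0.13 for Hrh1. Since low values hardly vary on this scale, these intervals do not bound the change of the RNA itself.

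Most partners of the receptors were measured above the floor. Of 15 Gq signalling genes, 11 lay above it and 4 under it. Of 22 Gs and Gi signalling genes with a row, 15 lay above it, 2 on both sides and 5 under it, and of 8 desensitisation genes with a row, 7 lay above it. Among 13 Gq genes tested, 6 fell and 0 rose with Group A (median -0.15, with 32.8% of all genes called), and 6 fell and 2 rose with Group B (median -0.13, with 41.0%). In STHdhQ7 cells 6 rose and 3 fell (median 0.04, with 55.8%). Gnaq, the Gq alpha subunit through which Adra1b signals, fell by 0.57 in STHdhQ7 cells, by 0.15 with Group A and by 0.30 with Group B. Plcb3, the phospholipase C that Gq activates, fell by 0.25 and 0.27 with the 2 groups. Of all 13409 genes, 2312 fell and 2087 rose with Group A, and 2841 fell and 2656 rose with Group B. Of 20 Gs and Gi genes tested, 4 fell and 0 rose with Group A (32.8% of all genes called). With Group B 10 fell and 0 rose (41.0%). In STHdhQ7 cells 5 rose and 6 fell, about the 55.8% of all genes.

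Of the 7 desensitisation genes tested, 1 fell with Group A (32.8% of all genes called) and 3 with Group B (41.0%). With either group 0 rose. The medians were 0.0045 and 0.03, above 0 although the called genes fell. In STHdhQ7 cells 1 rose and 2 fell (55.8%). Arrb1, beta-arrestin 1, which uncouples activated receptors, fell by 0.62 with Group A, by 0.66 with Group B and by 1.05 in STHdhQ7 cells. Rgs4, which shortens Gq and Gi signals, fell by 0.53 with Group B and by 1.03 in STHdhQ7 cells and was at 0.05 with Group A (adjusted p = 0.66). Of 19 amine transporter and enzyme genes with a row, 15 lay under the floor in every sample. Maoa, which breaks down monoamines, lay above it and rose by 0.25 with Group A and by 0.47 with Group B and fell by 0.78 in STHdhQ7 cells. The plasma membrane transporters for serotonin (Slc6a4), dopamine (Slc6a3) and noradrenaline (Slc6a2), the last of which nortriptyline blocks, lay under the floor in every sample.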

How the data were processed

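RNA-Seq was analysed in 48 samples of STHdh cells, and conditions, doses, collection days and times were taken from the sample labels. According to the study's methods and the submitters' processing notes, reads were trimmed (Trimmomatic 0.36), mapped to the transcriptome of GRCm38.p5 and quantified by RSEM. The deposited table gives normalized abundances that the authors made from the RSEM estimates, read here as log2 values. The transformation is not given in the sources used here, and the values behave like a regularized logarithm, so changes of low genes are understated. Depth is unknown, so counting errors cannot be given, and DESeq2, which the authors used on counts, was not run. Summed linear values differed at most 1.11-fold between samples, and correlations between samples of a condition ranged from 0.9964 to 0.9994.

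The 13409 genes with a symbol and a mean of 1 or more were fitted in limma 3.58.1 (R 4.3.3) with terms for the 16 conditions and for the day of collection, with moderated variances that follow abundance and 30 residual degrees of freedom. P-values were two-sided and adjusted by Benjamini-Hochberg over all genes within each comparison. On simulated data for cyproheptadine with 13409 genes, 97 of 100 genes changed by 0.6 and 68 of 100 changed by 0.3 were recovered. Among the unchanged genes 11 were called. Only these genes were changed, whereas 35.6% of all genes were called in the real comparison, so the rates need not carry over to it. Gene lengths, overlaps and coordinates came from GENCODE M21 (GRCm38). All 9 receptor genes are named, as are genes of the fixed lists and the 5 genes most like each receptor above the floor. The receptors, lists and tests were chosen with earlier results of these data known. Lists give counts and medians without a test. The replicate number matches the collection day apart from replicate 1 of cyproheptadine and DKI. Samples of the same day had a mean correlation of -0.055 after condition means were removed, beside 0.0279 for other days, and 1 of 120 pairs of conditions had every same-number correlation over 0.1.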

Additional observations from a re-analysis of the deposited data

How the results depend on the processing

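Depth is unknown, low values are compressed, and each condition has 3 samples, which limits the calls of Adra1b most. Of 160 values of the 20 called differences under 8 other settings, 153 kept their direction and their side of the threshold, 7 kept their direction only and 0 reversed. With a sample left out, 108 of 138 kept both and 30 kept the direction only. In these fits 10 of the 20 calls held without each sample in turn, 9 of them of Tmem97. The block on the replicate number in place of the collection day changed no call of the 4 tested genes. Of the 72 differences not called, 1 was called under another setting and 4 with a sample left out.

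Without the minimum mean, 4 of the genes were called between STHdhQ7 and STHdhQ111 in place of 2, since Htr2a and Htr2b were then tested. Their differences were 0.0056 (adjusted p = 0.0388) for Htr2a and 0.011 (adjusted p = 3.27e-06) for Htr2b. For Group A, 1 was called in place of 2. With the collection time added, Group A had 1. With only the compared samples in the fit, STHdhQ7 against STHdhQ111 had 1 and Group B had 1. Adra1b with nicotinamide was not called without the minimum (adjusted p = 0.0573) or with the collection time (0.0529). With a sample left out, the calls ranged from 7 to 11 over the 14 compounds, where 10 were reported, from 3 to 7 over the 6 pairs, where 4 were reported, from 1 to 2 for Group A, from 1 to 2 for Group B and were 2 throughout for STHdhQ7. The 7 came without cyproheptadine replicate 2. With the floor set at the highest sensory receptor gene (11.42), 0 receptor genes lay above it, and at the 90th percentile (2.99) 2 did. By Spearman's correlation, 0 of the 5 genes most like Tmem97 and 3 of the 5 most like Adra1b were the same. The causes of these changes were not tested beyond the number of genes and samples that each setting uses.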
